A study of Mus musculus with 11 samples.

Results

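The Foxp3 locus is described here as every binding position and every Foxp3 interval between 7130000 and 7185000 on chromosome X of the mouse (build mm9), a window of 55 kb that holds the gene. The window was set by its coordinates, not by measured values. It held 140 of the 1059098 single-base positions deposited for 5 chromatin immunoprecipitation (ChIP-seq) libraries, and 2 of the 2886 Foxp3 intervals. The libraries came from CD4 T cells of lymph nodes and spleen, taken from mice about 8 weeks old and sorted by a green fluorescent protein (GFP) reporter of Foxp3. From Foxp3-positive regulatory T cells (Treg), Elf1, Ets1 and Cbfb were profiled in a single library per factor, and Foxp3 in 3 libraries that the authors pooled into 1 list. These were 2 replicates, the first of them as 2 technical replicates. From Foxp3-negative CD4 T cells (CD4 below), the single Elf1 and Ets1 libraries were used. Input from Treg cells, and Cbfb from CD4 cells, labelled as of poor quality, were not analysed here. The labels give no strain, no pooling of animals and no account of how the GFP reporter was built, and the reporter marks the same gene whose locus is described. Whether the reporter bears on read alignment there, and so on the counts and fold values given below, was not tested.

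Foxp3 encodes the forkhead transcription factor that defines regulatory T cells and keeps their suppressive program. Its transcription is known to depend on a promoter and on conserved non-coding elements within the gene, 1 of which is bound by Foxp3 itself together with Runx proteins and Cbfb and maintains expression in dividing Treg cells. Elf1 and Ets1 are ETS family factors that recognise a GGAA core, and Ets1 is a known activator of Foxp3. Cbfb binds no DNA on its own and stabilises the Runx proteins on theirs. In the RefSeq gene table for build GRCm38.p6, used for names only, Foxp3 lay between the long non-coding RNA gene Flicr and the coding gene Ccdc22, with Ppp1r3f and Cacna1f beyond them. No mm9 annotation was used here, so positions carry mm9 coordinates and were not assigned to promoter, introns or 3′ end.

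The promoter of Foxp3 is shown because the ETS core that Elf1 and Ets1 recognise can be read in it. RefSeq (GRCm38.p6) lists 2 start sites for Foxp3 on the plus strand of chromosome X. The 250 bases before the first are printed 5′ to 3′, with each GGAA or its reverse complement TTCC in capitals.
Foxp3 start site 1: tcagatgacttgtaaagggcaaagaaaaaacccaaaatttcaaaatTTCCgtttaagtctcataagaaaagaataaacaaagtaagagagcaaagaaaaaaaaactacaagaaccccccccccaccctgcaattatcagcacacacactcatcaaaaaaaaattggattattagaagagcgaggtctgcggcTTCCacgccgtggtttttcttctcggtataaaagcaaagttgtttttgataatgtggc
On both strands together, the 250 bases before each start site held 2 ETS cores. An ETS core was present in 93.4% of the 32851 RefSeq start sites searched over the same length, so its presence is common. The Runx motif TGTGGT (or ACCACA) was in neither Foxp3 window and in 14% of all promoters. The forkhead motif GTAAACA (or TGTTTAC) was in neither and in 3.17% of all promoters. Runx and forkhead motifs were searched in these exact forms only, so variant sites would be missed. These letters are in another build than the binding positions, and no position was placed on them.

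All 5 libraries had more positions in the Foxp3 window than their density on the rest of chromosome X would give. Counted were positions with a false discovery rate (FDR, the authors' q-value per position) of at most 0.01, 96 of the 140. Treg Elf1 had 22 of 23 positions past this limit, against 84.0% of its positions genome-wide, and Treg Cbfb had 29 of 36, against 75.2%. Treg Ets1 had 21 of 34, against 27.3%. CD4 Elf1 had 14 of 29, against 22.2%, and CD4 Ets1 had 10 of 18, against 17.4%. The exact binomial 95% intervals of the window's shares lay above the genome-wide share for Treg Ets1 (43.6 to 77.8%), CD4 Elf1 (29.4 to 67.5%) and CD4 Ets1 (30.8 to 78.5%). For Treg Elf1 (78.1 to 99.9%) and Treg Cbfb (64.0 to 91.8%) they included it. Reads per library are not given, so every interval here covers counting error only, and neighbouring positions are not independent.

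Per 10 kb, the window held 5.27 Treg Cbfb positions (exact Poisson 95% interval 3.53 to 7.57), and the rest of chromosome X 0.503. The ratio was 10.5 (7.02 to 15.1). Treg Elf1 had 4 per 10 kb (2.51 to 6.06) in the window and 0.584 on the rest of the chromosome, a ratio of 6.86 (4.29 to 10.4). Treg Ets1 had 3.82 (2.36 to 5.84) and 0.223, a ratio of 17.1 (10.6 to 26.2). In cells without Foxp3 the locus was dense too. CD4 Elf1 had 2.55 positions per 10 kb (1.39 to 4.27) in the window and 0.131 on the rest of X, a ratio of 19.4 (10.6 to 32.7). CD4 Ets1 had 1.82 (0.872 to 3.34) and 0.0941, a ratio of 19.3 (9.25 to 35.6). The lists differ in length, so the ratios are not ranked between libraries. In every library but Treg Elf1 their size depended on the FDR limit. Over all deposited positions they were 6.33 (Elf1), 6.54 (Ets1) and 10.9 (Cbfb) in Treg cells, and 5.55 (Elf1) and 3.80 (Ets1) in CD4 cells. The Treg Cbfb ratio was little changed there, but with an FDR of at most 0.001 it was 24.3.

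**Figure D1:**
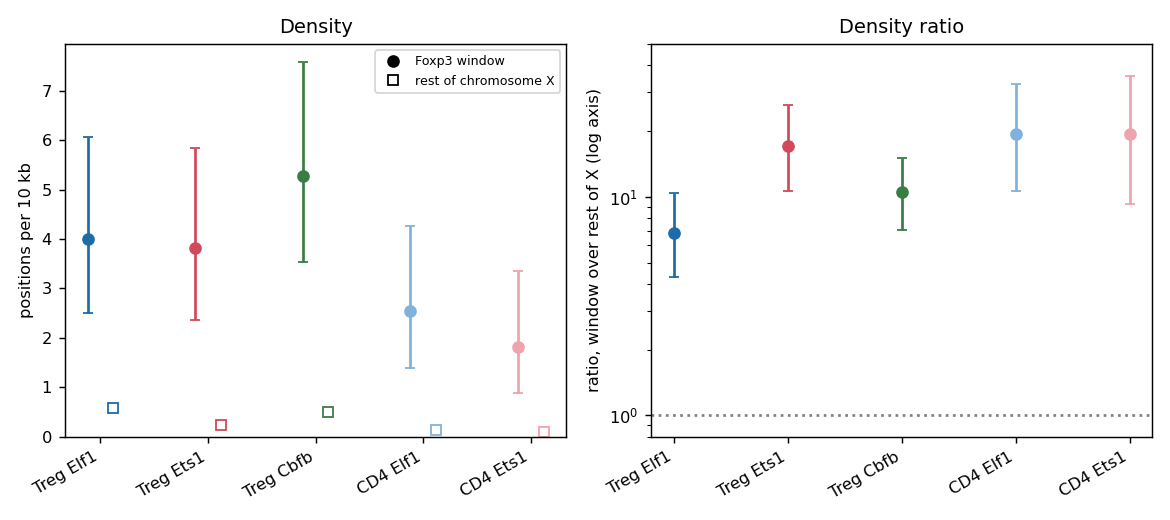
Left, positions with an FDR of at most 0.01 per 10 kb in the Foxp3 window (filled, with exact Poisson 95% intervals) and on the rest of chromosome X (open squares), for each of the 5 libraries. Right, the ratio of the densities on a log axis with exact 95% intervals; all 5 ratios lie above 1, between 6.86 for Treg Elf1 and 19.4 for CD4 Elf1.

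The adjoining stretches of 55 kb on either side were sparser. They held 4 and 6 Treg Elf1 positions, 0 and 3 of Treg Ets1, 4 and 2 of Treg Cbfb, 1 and 5 of CD4 Elf1, and 0 and 2 of CD4 Ets1. When chromosome X was cut into 3028 windows of the same length, none of the others held as many Treg Elf1, Treg Ets1 or Treg Cbfb positions as the Foxp3 window. The fullest other window held 18, 15 and 12 of them. For CD4 Elf1 1 other window held more, with 16, and for CD4 Ets1 2 held more, with up to 21. The Foxp3 window held 29 Treg Cbfb positions, against at most 16 in any other stretch of 55 kb in the genome, whatever its start. For the other libraries some stretches elsewhere were fuller, with up to 50 Elf1 and 82 Ets1 positions in Treg cells and up to 27 Elf1 and 81 Ets1 positions in CD4 cells. The numbered chromosomes and X gave 47955 windows of this length. Of these, 27 held more Treg Elf1, 39 more Treg Ets1, 52 more CD4 Elf1 and 302 more CD4 Ets1 positions than the Foxp3 window.

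For 3 of the libraries, highly enriched positions made up a larger share of the window than of the rest of chromosome X. Fold enrichment is the authors' value per position, taken here as its maximum likelihood estimate, and its control is not given. At or over 20-fold were 11 of the 22 Treg Elf1 positions, against 11.4% of that list genome-wide and 23.0% on the rest of chromosome X. Treg Cbfb had 10 of 29, against 5.11% genome-wide and 10.7% on the rest of X. CD4 Elf1 had 7 of 14, against 10.4% and 9.89%. The exact 95% intervals of these shares in the window ran from 28.2 to 71.8%, from 17.9 to 54.3% and from 23.0 to 77.0%. Of the Ets1 libraries, 2 of 21 Treg Ets1 positions reached 20-fold, against 4.62% genome-wide and 7.69% on the rest of X, and 1 of 10 CD4 Ets1 positions did, against 6.75% and 9.51%. Their intervals, 1.17 to 30.4% and 0.253 to 44.5%, included the value on the rest of X. By the authors' lower bound in place of the estimate, Treg Cbfb had 5 of 29 positions at or over 20-fold (5.85 to 35.8%), against 0 of 8372 on the rest of X (upper limit 0.0441%). CD4 Elf1 had 2 of 14 (1.78 to 42.8%), against 0.550%, and Treg Elf1 1 of 22 (0.115 to 22.8%), against 0.0617%. Treg Ets1 and CD4 Ets1 had 0, with upper limits of 16.1 and 30.8%.

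Median fold enrichment in the window was 20.6 for Treg Elf1, against 8.97 on the rest of X. It was 15.2 against 7.84 for Treg Cbfb, and 20.5 against 6.07 for CD4 Elf1. For Treg Ets1 it was 9.99 against 5.99, and for CD4 Ets1 7.69 against 6.07. The window held 10 Treg Cbfb positions at or over 20-fold, against at most 4 in any other stretch of 55 kb in the genome. It held 11 of Treg Elf1 and 7 of CD4 Elf1, and the fullest stretches elsewhere held as many.

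**Figure D2:**
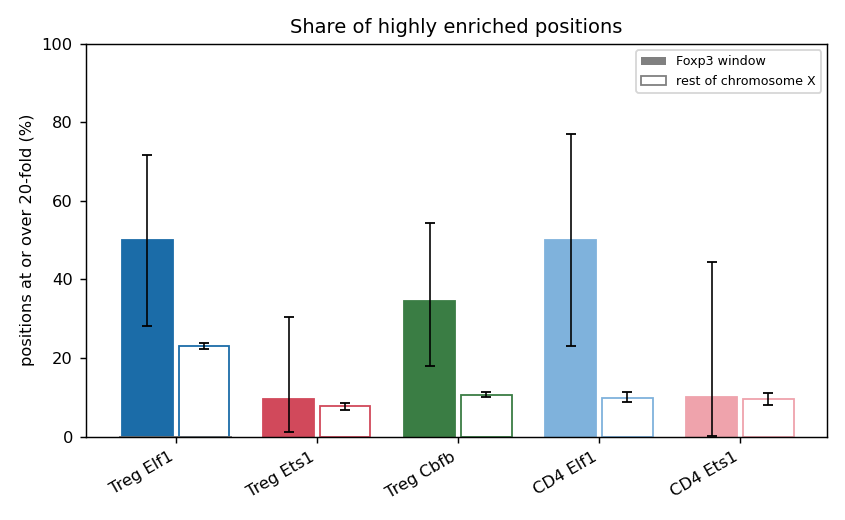
Share of positions (FDR at most 0.01) at or over 20-fold, in percent, in the Foxp3 window (filled bars) and on the rest of chromosome X (open bars), with exact binomial 95% intervals. The window's bars stand higher for Treg Elf1 (50% and 23.0%), Treg Cbfb (34.5% and 10.7%) and CD4 Elf1 (50% and 9.89%), while the Ets1 bars differ by less than their intervals.

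The positions were bunched. Chained across all libraries with gaps of at most 500 bp, the 96 positions fell into 25 stretches. Of these, 15 were single positions, 6 held 3 or more libraries and 1 held all 5. The 9 stretches that held at least 3 libraries or a position at or over 20-fold took in 79 of the 96 positions. They are given below by their place relative to the 2 Foxp3 intervals, which lie 13137 bp apart, at 7147984 to 7148184 and at 7161121 to 7161321. The nearest Foxp3 interval outside the window was 137785 bp from the second, and chromosome X held 22 in all.

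**Figure D3:**
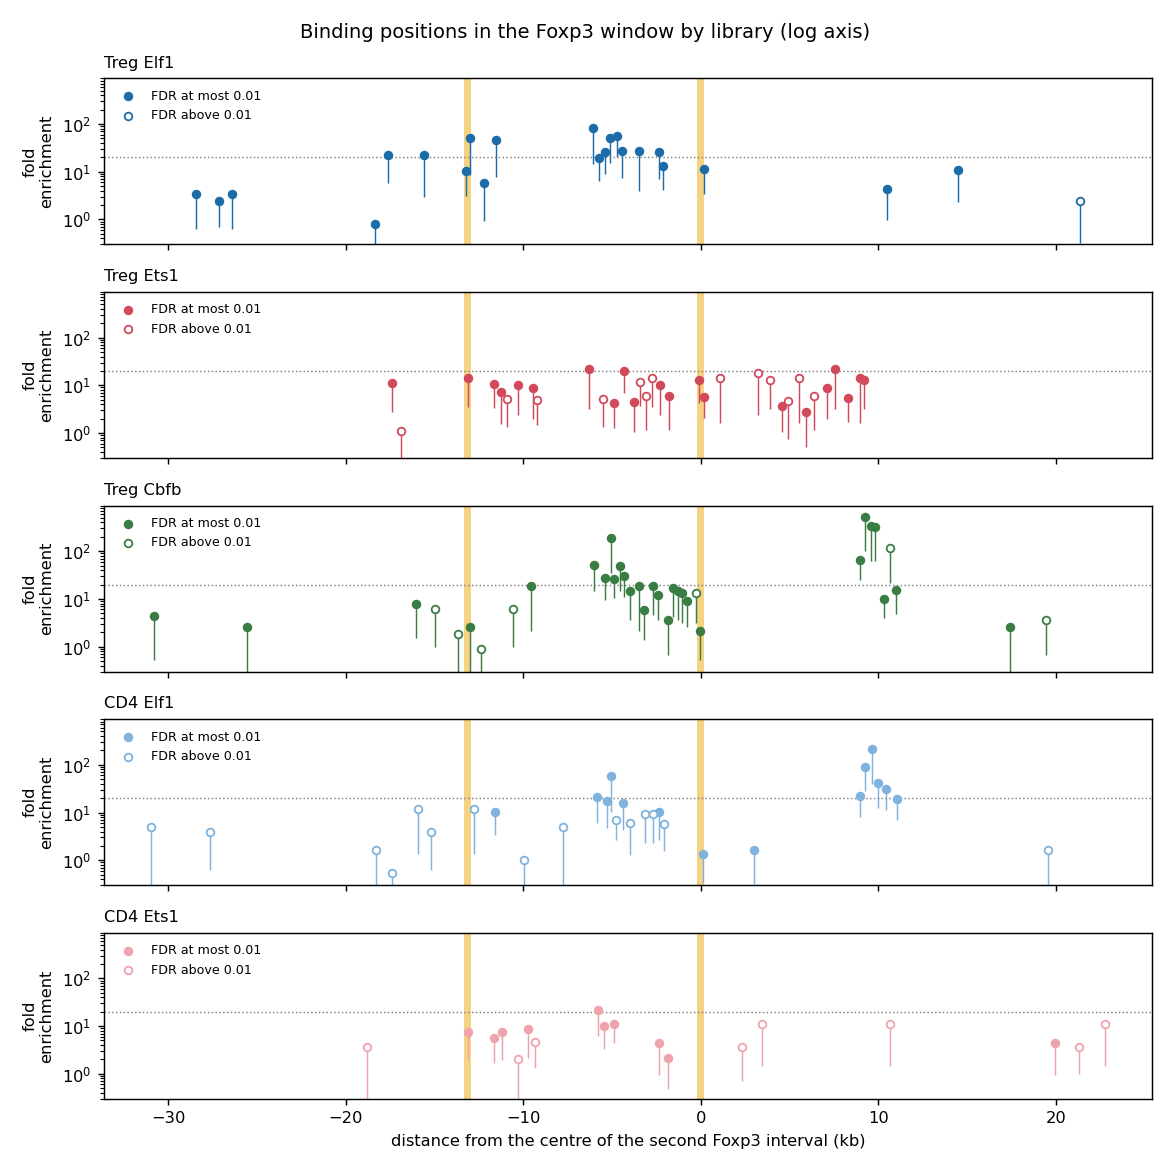
Fold enrichment (log axis) of every deposited position in the window against its distance in kb from the centre of the second Foxp3 interval, 1 panel per library; filled points have an FDR of at most 0.01, lines run down to the authors' lower bound, yellow bands are the Foxp3 intervals (drawn slightly widened) and the dotted line is 20-fold. Cbfb (520-fold) and CD4 Elf1 (214-fold) are highest beyond the second interval, Treg Elf1 (80.7-fold) before it, and the 8738 bp before the last dense stretch hold mostly Treg Ets1.

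The second Foxp3 interval, at 7161121 to 7161321, carried Foxp3 itself beside Treg positions of all 3 other factors, at moderate to low enrichment. Treg Ets1 positions lay at 7161100 (13.2-fold, lower bound 4.33) and 7161375 (5.55-fold). Treg Elf1 lay at 7161421, 100 bp outside the interval, with 11.3-fold (lower bound 3.45). Treg Cbfb lay inside it at 7161184, with 2.14-fold and a lower bound of 0.530. CD4 Elf1 had a position 12 bp outside, at 7161333, with 1.36-fold (lower bound 0.336), and CD4 Ets1 had none of any FDR nearer than 1726 bp. Over the whole Foxp3 list, 85.2% of intervals have a Treg Elf1 position within 200 bp, 83.5% Treg Ets1, 28.1% Treg Cbfb, 88.9% CD4 Elf1 and 89.0% CD4 Ets1.

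At the first Foxp3 interval, at 7147984 to 7148184, Treg cells again had all 3 other factors within 200 bp. Treg Elf1 had 2 positions, at 7147992 (10.3-fold, lower bound 3.09) and at 7148227 (51.4-fold, lower bound 8.50), and Treg Ets1 had 1 at 7148119 (13.98-fold, lower bound 3.56). CD4 Ets1 lay 10 bp from that, at 7148109, with 7.69-fold (lower bound 1.92) and a score (the authors' ranking value, of unstated scale) of 10.02, the third highest of that library in the window. Treg Cbfb lay 21 bp outside, at 7148205, with 2.61-fold and a lower bound of 0.00334. CD4 Elf1 had no position past the FDR limit within 200 bp. Its nearest of any FDR was 267 bp away, with 11.6-fold (lower bound 1.37) and an FDR of 0.0715. By these limits of distance and FDR, each Foxp3 interval had 1 of the CD4 ETS factors and lacked the other. The CD4 Elf1 position counted at the second interval had only 1.36-fold, with a lower bound of 0.336.

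The longest stretch ran from 7154921 to 7160423 and ended 698 bp before the second Foxp3 interval. In 5502 bp it held 41 positions: 9 of Treg Elf1, 6 of Treg Ets1, 16 of Treg Cbfb, 5 of CD4 Elf1 and 5 of CD4 Ets1. It was the only stretch with all 5 libraries, and 17 of its positions reached 20-fold. Among all deposited positions between these limits, CD4 Elf1 and Treg Ets1 had 10 each, and the other libraries the same numbers as above. Treg Elf1 was high throughout, from 13.2 to 80.7-fold with a median of 26.9. Its highest fold lay at 7155151 (80.7-fold, lower bound 14.1). Its highest score, 17.6, lay at 7156502 (55.3-fold, lower bound 20.2), and the position at 7156105 had 51.4-fold. The position at 7158874 had the second highest Treg Elf1 score in the window, 10.6, with 25.3-fold (lower bound 6.90). The 6 Treg Elf1 positions between 7155151 and 7156769 formed a run, with neighbours at most 500 bp apart, that no run of Treg Elf1 elsewhere exceeded in number. A further 7 runs were as long. Runs of a single library, here and below, were examined after the window's values had been seen, and are given as a description.

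Cbfb had the most positions in this stretch. They ranged from 3.66 to 186-fold, with a median of 17.4. The highest, at 7156139 (186-fold, lower bound 34.2), was number 5 by fold and number 23 by score in the whole Treg Cbfb list. From 7155823 to 7158837, 10 Cbfb positions followed each other with a median gap of 316 bp. This was the longest such run in the genome among the 73 Cbfb runs of 3 or more positions. The next run, from 7159359 to 7160423, had 5 positions between 3.66 and 16.5-fold, and only 1 run, the first, was longer. The Cbfb folds were lower in this run, the nearer of the pair to the second Foxp3 interval.

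In the same stretch CD4 Elf1 reached 58.0-fold (lower bound 10.2) at 7156192 and 21.5-fold at 7155360. The 3 other positions lay between 10.5 and 17.1-fold. Ets1 was lower in both cell types. Treg Ets1 reached 22.0-fold at 7154921 (lower bound 3.14) and 19.6-fold at 7156871 (lower bound 6.76), where its score of 11.5 was its highest in the window. CD4 Ets1 reached 21.4-fold at 7155433 (lower bound 6.21), where its score of 11.99 was also its highest in the window. At 7155769 and 7156359 it had 9.95 and 11.3-fold. Its other 2 positions had high scores and low enrichment, a score of 9.95 with 4.45-fold at 7158854 (lower bound 0.931) and a score of 9.33 with 2.19-fold at 7159395 (lower bound 0.472). Score and fold therefore order the positions differently.

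The stretch with the highest folds ran from 7170160 to 7171681, its middle 9.70 kb beyond the centre of the second Foxp3 interval, and they were those of Treg Cbfb and CD4 Elf1. Cbfb reached 520-fold (lower bound 98.7) at 7170482, the highest fold of the whole Treg Cbfb list and with 52.6 the fourth highest score. Positions at 7170819 (332-fold, lower bound 62.4) and 7171019 (327-fold, lower bound 61.4) were numbers 3 and 4 by fold. The position at 7170208 (66.4-fold, lower bound 24.4) was number 10, and by its score of 27.7 number 7. A further Cbfb position, at 7171853, had 118-fold (lower bound 21.1) but an FDR of 0.0494, so it is not among the 29. By fold, 5 of the 6 highest positions of the Treg Cbfb list lay in the window when it is included, and 4 without it.

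CD4 Elf1 was the other library with high folds there. It had 214-fold (lower bound 40.2) at 7170855, 91.1-fold (lower bound 27.9) at 7170454, 41.4-fold at 7171223, 31.5-fold at 7171662 and 22.2-fold at 7170200. At 7172249, 21 bp from the next Cbfb position, it had 19.5-fold. The scores at 7170855 and 7170454, 41.7 and 34.1, were its 2 highest in the window, and numbers 3064 and 4003 in its whole list. No run of CD4 Elf1 elsewhere exceeded these 5 positions between 7170200 and 7171662, and 3 were as long. The same factor in Treg cells had a single position in the stretch, at 7171681, with 4.40-fold and a lower bound of 0.951. Treg Ets1 had 2, at 7170160 (13.98-fold) and 7170394 (12.6-fold). CD4 Ets1 had none past the FDR limit.

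Between these dense stretches, from 7161422 to 7170159, Treg Ets1 was nearly alone. It had 5 positions past the FDR limit, at 2.80 to 22.0-fold, of which the highest lay at 7168764 (lower bound 3.14). Treg Elf1, Treg Cbfb and CD4 Ets1 had 0 there, and CD4 Elf1 had 1, at 7164231 with 1.66-fold. Among all deposited positions Treg Ets1 had 11, CD4 Ets1 2 and CD4 Elf1 1, and Treg Elf1 and Treg Cbfb again 0. The limits of this interval were drawn after the values had been seen, and it is given as a description.

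**Figure D4:**
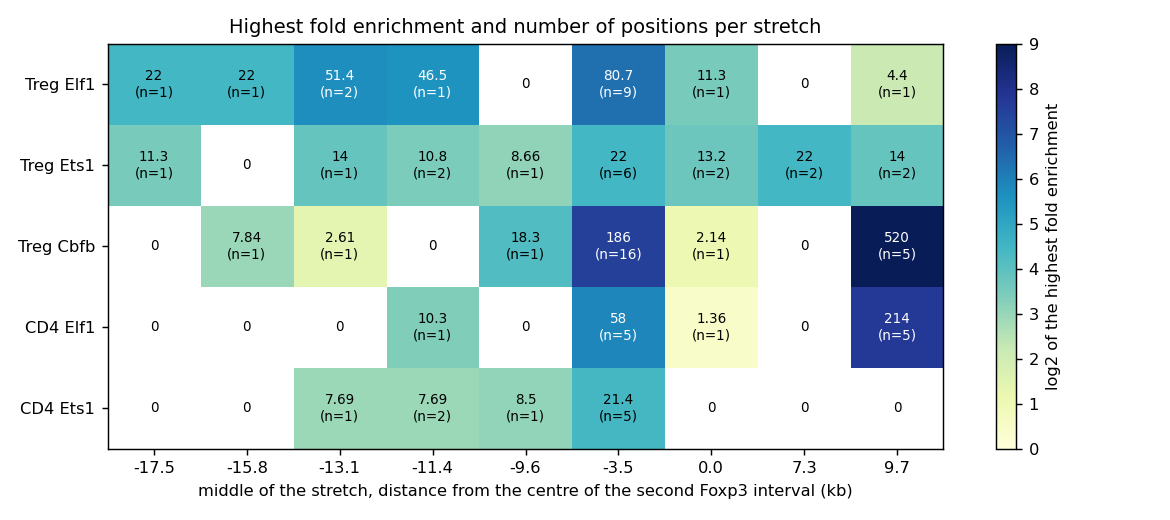
Highest fold enrichment (number, shaded on a log2 scale) and number of positions (n) of each library (rows) in the 9 stretches with at least 3 libraries or a position at or over 20-fold, placed by the distance of their middle from the centre of the second Foxp3 interval in kb; 0 marks no position with an FDR of at most 0.01. The long stretch at -3.5 kb holds all 5 libraries, and the one at 9.7 kb holds the 520-fold Cbfb and 214-fold CD4 Elf1 maxima.

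On the other side of the long stretch, before 7154921, Treg Elf1 had 10 positions, 4 of them at or over 20-fold, and Treg Ets1 6. Treg Cbfb had 5, CD4 Elf1 1 and CD4 Ets1 4, all under 20-fold. These counts depend on the FDR limit. Among all deposited positions there, Treg Elf1 and CD4 Elf1 had 10 each, Treg Ets1 and Treg Cbfb 9 each, and CD4 Ets1 7. At 7143591 Treg Elf1 had 22.0-fold and a score of 10.4, with Treg Ets1 252 bp away at 7143843 (11.3-fold), and neither CD4 library had a position past the FDR limit in that stretch. At 7145630 Treg Elf1 again had 22.0-fold, here with a lower bound of 2.93, beside Cbfb at 7145155 (7.84-fold). Between 7149582 and 7150019 all 4 Elf1 and Ets1 libraries were present and Cbfb was not. Treg Elf1 had 46.5-fold at 7149705 (lower bound 7.57), CD4 Elf1 10.3-fold at 7149643, Treg Ets1 10.8 and 7.32-fold, and CD4 Ets1 5.58 and 7.69-fold. The position at 7149963 held the second highest Treg Ets1 score of the window, 9.80, at only 7.32-fold. Further on, Treg Ets1 had 9.99-fold at 7150936 with a score of 8.10. From 7151484 to 7151762, CD4 Ets1 had 8.50-fold, Cbfb 18.3-fold (lower bound 2.16) and Treg Ets1 8.66-fold.

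Where Treg and CD4 cells shared a position of the same factor, fold enrichment was higher in the Treg library at 5 of 8 Elf1 positions and at 4 of 6 Ets1 positions. Of the 22 Treg Elf1 positions, 8 had a CD4 Elf1 position within 200 bp, against 11.4% of all Treg Elf1 positions. Of the 14 CD4 Elf1 positions, 8 had a Treg counterpart, against 32.5%. For Ets1, 6 of 21 Treg positions had a CD4 counterpart, against 18.7%, and 6 of 10 CD4 positions a Treg counterpart, against 27.7%. Over the 8 Elf1 pairs the median Treg over CD4 log2 ratio of fold enrichment was 0.67, with a range from -2.84 to 3.05. Over all 17926 Elf1 pairs the median was -0.17, and over the 391 pairs on the rest of X it was -0.07. For the 6 Ets1 pairs the median was 0.91 (range -1.40 to 1.46), against -0.44 over all 11551 pairs and -0.35 over the 212 on the rest of X. By the authors' score, most of these pairs were higher in the CD4 library, but the score's scale differed between lists. A score of 10.6 was number 4930 in the Treg Elf1 list (7158874) and number 13977 in the CD4 Elf1 list (7149643). At 7155508 the Elf1 score was 6.52 in Treg cells (number 10869) and 13.4 in CD4 cells (number 11276). At 7158874 it was 10.6 and 4.91 (number 39605). For Ets1 it was 4.45 (number 31953) and 9.95 (number 13076) at 7158920, but 9.80 and 9.18 at 7149963. By number in its own list, the Elf1 pair at 7155508 was higher in Treg cells and the Ets1 pair at 7158920 in CD4 cells. Scores were not put on a common scale, so no direction is read from them. With 1 library per group there is no replicate check, depth and control are unknown, and the ratios describe the libraries.

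The ratio differed along the locus. At the second Foxp3 interval, Elf1 had 11.3-fold in Treg cells and 1.36-fold (lower bound 0.336) in CD4 cells, a log2 ratio of 3.05. The scores there were 5.28 (number 17745 in its list) and 5.53 (number 29855). In the stretch between the Foxp3 intervals at 7149705, Elf1 had 46.5-fold in Treg cells and 10.3-fold in CD4 cells, a log2 ratio of 2.18. In the long stretch the Elf1 pairs lay nearer to 0, from -0.17 to 1.27. The pairs at 7155508 and 7156105 had -0.17, the median of all Elf1 pairs. At 7156105 the folds were 51.4 in Treg cells and 58.0 in CD4 cells. In the last dense stretch the order was turned round, with 4.40-fold in Treg cells and 31.5-fold in CD4 cells, a log2 ratio of -2.84. For Ets1, the pairs at 7158920 and 7159416 had log2 ratios of 1.17 and 1.46, and the pair at 7156335 had -1.40.

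**Figure D5:**
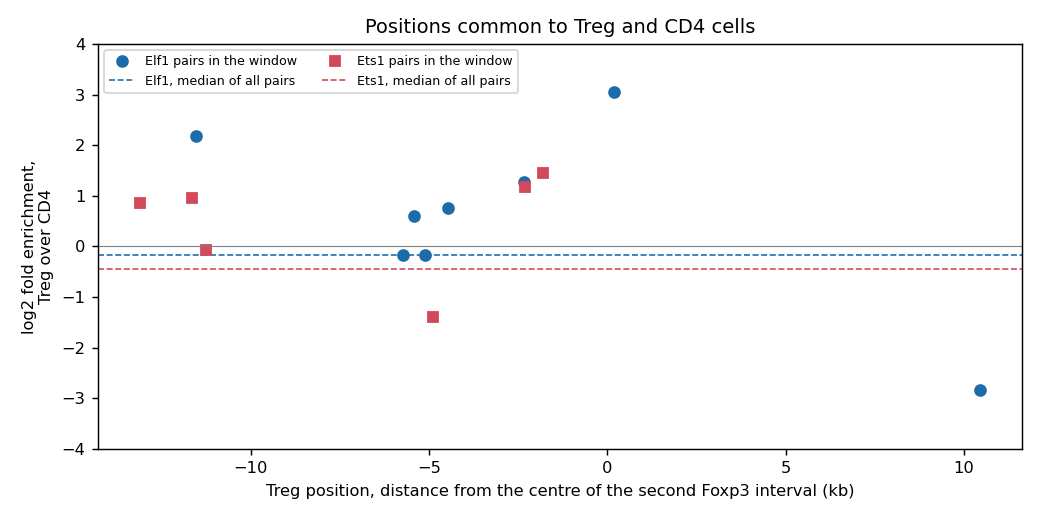
Log2 ratio of fold enrichment, Treg over CD4, at Elf1 (circles) and Ets1 (squares) positions that both cell types share within 200 bp, against distance in kb from the centre of the second Foxp3 interval; dashed lines are the medians over all such pairs in the genome. The Elf1 pair at the second interval has 3.05 and the pair in the last dense stretch -2.84, each from single libraries.

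Positions of different libraries coincided often at the locus. Of the 29 Cbfb positions, 10 had a Treg Elf1 position within 200 bp, against 5.14% of all Cbfb positions, and 10 had Treg Ets1, against 2.97%. With CD4 Elf1 the number was 14, against 2.76%, and with CD4 Ets1 6, against 2.58%. Seen from the other side, 11 of 14 CD4 Elf1 positions in the window had a Cbfb position within 200 bp, or 78.6%, against 4.90% of CD4 Elf1 positions on the rest of X. The same share was 40.9% for Treg Elf1, against 3.91%, 47.6% for Treg Ets1, against 4.28%, and 60% for CD4 Ets1, against 5.87%. These shares rise with the density of the lists, which is high here in every library, and their part in the coincidence was not tested.

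Many fold values at the locus are not unique, which limits how finely they can be read. The 22.0-fold of Treg Ets1 at 7154921 and 7168764 is shared by 2447 positions of that list, and its 13.98-fold at 7148119 and 7170160 by 10710. The 22.0-fold of Treg Elf1 is shared by 8178. The Cbfb folds of 520, 332, 327, 186 and 66.4 each occurred once in their list, and the 214-fold of CD4 Elf1 at 8 positions.

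By the counts in the 5 libraries, the windows of the same length most like the Foxp3 window lay on chromosomes 1, 11 and 13. Likeness was the distance in log2(count + 1) over the 5 libraries, with 22, 21, 29, 14 and 10 positions at the Foxp3 window in the order Treg Elf1, Treg Ets1, Treg Cbfb, CD4 Elf1, CD4 Ets1. The window at 97550000 to 97605000 on chromosome 1 held 19, 11, 14, 13 and 10, at a distance of 1.35. The window at 86385000 to 86440000 on chromosome 11 held 18, 21, 12, 8 and 12 (distance 1.46), and the one at 46785000 to 46840000 on chromosome 13 held 18, 19, 10, 10 and 10 (distance 1.55). All 3 had fewer Cbfb positions than the Foxp3 window, as had every other stretch of 55 kb in the genome (at most 16).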

How the data were processed

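Per the submitters' processing notes, the authors aligned reads with Bowtie 0.12.7 to mm9. The peak caller, its thresholds and the control are not given in the sources used here. Per the file headers, the authors deposited for each position a score, an E-value, an FDR (q-value) and a fold enrichment ratio as lower bound and maximum likelihood estimate. The Foxp3 list, pooled by the authors per the labels, holds 200 bp intervals without a score.

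Positions in the window were counted at an FDR of at most 0.01. The length of each chromosome was its highest deposited coordinate. Intervals are exact Poisson or Clopper-Pearson 95% intervals. Each of the 5 position lists came from 1 library, and the Foxp3 libraries were pooled into 1 list, so no test between groups was run. Named were, per library, the 5 positions with the highest score and the 5 with the highest fold, every Foxp3 interval, and stretches with 3 or more libraries or a position at or over 20-fold; other positions were added for context. Members, limits and named positions were chosen with earlier results of these data known. Functions were tested on simulated data. Alternatives were other FDR limits, list lengths, distances, gaps, fold limits and backgrounds. Python 3.11.15, numpy 2.4.6, pandas 2.3.3, scipy 1.17.1 and matplotlib 3.10.9 were used.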

Additional observations from a re-analysis of the deposited data

How the results depend on the processing

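No paired analysis was possible because the labels give replicate numbers only to the Foxp3 and input libraries, and Foxp3 was deposited as 1 pooled list. Of 84 alternatives, 43 kept a count within 1.5 times or a value within its 95% interval, and 41 moved it. The density ratio stayed above 1 under every alternative run. With an FDR of at most 0.001 it was 51.2 for Ets1 and 24.3 for Cbfb in Treg cells, and in CD4 cells 40.4 for Elf1 and 37.2 for Ets1, the last on 6 positions. With all deposited positions it was 6.54 for Treg Ets1 (34 positions), 5.55 for CD4 Elf1 (29) and 3.80 for CD4 Ets1 (18). With the 10000 highest scores the Treg libraries had 70.7 (Elf1, 5 positions), 98.7 (Ets1, 9) and 84.7 (Cbfb, 17), CD4 Elf1 had 79.7 (4), and CD4 Ets1 had 1 position. With the 20000 highest the Treg libraries had 37.1 (Elf1, 9 positions), 52.1 (Ets1) and 43.0 (Cbfb), and the CD4 libraries 66.2 (Elf1, 8) and 40.6 (Ets1, 6). Against the flanks it was 4.67 for CD4 Elf1. Gaps of at most 1000 bp gave 14 stretches, and gaps of at most 200 bp 45. With all deposited positions 10 Treg Ets1 positions had a CD4 counterpart. By the lower bound, the share at or over 20-fold was 4.55% (Elf1), 0% (Ets1) and 17.2% (Cbfb) in Treg cells, and 14.3% (Elf1) and 0% (Ets1) in CD4 cells. With a limit of 10-fold it was, in Treg cells, 72.7% for Elf1 (44.5% on the rest of X), 42.9% for Ets1 (26.5%) and 69.0% for Cbfb (36.6%), and in CD4 cells 85.7% for Elf1 (33.8%) and 20% for Ets1 (33.3%, so lower in the window). The number of Foxp3 intervals with a position changed in no library. A single library per position list and unknown read depth limit every value.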
